A study of Mus musculus with 15 samples.

Results

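The NRF2 antioxidant genes described here are *Nfe2l2*, *Keap1*, *Nqo1*, *Gclc*, *Gclm*, *Slc7a11*, *Srxn1*, *Gsr*, *Prdx1* and *Sod2*, which were taken by name from the 20089 genes with complete values in the deposited expression table. All 10 were found and all 10 passed the filter on low values, which left 11743 genes to test. NRF2, the product of *Nfe2l2*, is a transcription factor that binds antioxidant response elements (ARE) together with small MAF proteins and drives genes for glutathione synthesis, thiol reduction and detoxification. KEAP1 holds NRF2 for ubiquitination by a CUL3 ligase until oxidants or electrophiles modify its cysteines, so NRF2 activity is set largely at the protein level, which RNA-seq does not measure. In osteoclast precursors RANKL signalling uses reactive oxygen species as messengers, and loss of NRF2 is known to favour osteoclast formation, whereas in macrophages LPS acts through NF-κB, a known activator of *Sod2*.

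The samples were bone marrow-derived macrophages (BMDMs) of wild-type C57BL/6 mice, 15 in all, in 5 groups of 3. All groups received M-CSF, the growth factor of macrophages, which the series' design text gives as 3 days. Control cells received nothing else, and the other groups received RANKL (100 ng/mL) for 4 h or 3 d, or LPS (100 ng/mL) for 4 h or 3 d. They are called control, RANKL 4 h, RANKL 3 d, LPS 4 h and LPS 3 d below. RANKL turns these precursors into osteoclasts, and LPS, a bacterial outer membrane component, turns them into inflammatory macrophages. The design asks how each stimulus changes expression early and late, and what sets RANKL apart from LPS. Cells left in M-CSF for the added 3 d without a stimulus are not among the groups. In the comparisons with control, and in those of 3 d with 4 h of a stimulus, its late effect and time in culture therefore cannot be told apart. The study's methods give an age range for its *Zmat1* mice but name none for these samples, and whether same-numbered samples share an animal is not given in the labels, so p-values measure only the spread between these samples, which may be technical. All comparisons with control share the same 3 control samples.

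Values are FPKM, fragment counts scaled to transcript length and to the fragments mapped in the sample. The fragments recovered from them for 14485 genes summed to between 18306184 and 20330207 per sample, which is not the whole library. The labels were checked by marker genes. *Ctsk*, the collagen-degrading protease of osteoclasts, was at 532 to 1661 FPKM in RANKL 3 d, above its 15.5 to 32.9 FPKM in control. In LPS 3 d it was at 156, 74 and 34.6 FPKM, also above control but below RANKL 3 d. *Il6*, an inflammatory cytokine, was at 262 to 279 FPKM in LPS 4 h and at 0.329 to 0.734 FPKM in control. Markers of other cell types were detected too. The summed level of 18 stromal markers was 492 to 2231 FPKM in RANKL 3 d against 186 to 404 FPKM in control, with the highest sum in RANKL 3 d replicate 1. The summed level of 10 neutrophil and progenitor markers was 7913 to 24348 FPKM in control, 1852 to 7461 FPKM in RANKL 3 d and 152 to 1816 FPKM in LPS 3 d. LPS 3 d replicate 3 stood apart from its group, with the highest neutrophil and progenitor sum (1816 FPKM, against 152 and 186 FPKM), the highest stromal sum (598 FPKM, against 135 and 144 FPKM) and the lowest *Il6* (4.92 FPKM, against 24.2 and 27.1 FPKM). Calls of the comparisons with LPS 3 d are therefore also given without it where it changed them.

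Promoter sequence was available for 8 of the 10 genes (not for *Gclc* and *Gsr*) from RefSeq on GRCm38.p6, and the 250 bases before each start site were searched on both strands for 4 motifs. The ARE core was written as TGACNNNGC and lay in 10.2% of 32851 promoters, the AP-1 site as TGANTCA (6.75%), the κB site as GGGAN directly followed by TTTCC (0.356%) and the CARE, a site of the stress factor ATF4 and C/EBP proteins, as TGATGNAA (3.45%). Windows around the motifs found are shown because they show which family members carry which element near the start site. Capitals mark the motif, which reads backwards on the complementary strand in *Gclm* and *Prdx1*, and positions are counted from the start site.
Nfe2l2: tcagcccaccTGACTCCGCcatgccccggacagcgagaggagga
Gclm: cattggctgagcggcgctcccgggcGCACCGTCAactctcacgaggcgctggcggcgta
Slc7a11: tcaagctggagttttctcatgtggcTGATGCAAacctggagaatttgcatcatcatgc
Srxn1: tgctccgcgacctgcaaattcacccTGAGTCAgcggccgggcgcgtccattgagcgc
Prdx1: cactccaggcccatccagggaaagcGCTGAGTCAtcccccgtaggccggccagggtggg

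The *Nfe2l2* window lies at chr2:75704870-75704913 on the minus strand and holds an ARE core at -240 to -232. The *Gclm* window (chr3:122245398-122245456, plus strand) holds an ARE core at -134 to -126. The *Slc7a11* window (chr3:50443647-50443704, minus strand) holds a CARE at -66 to -59, and a further CARE on the other strand lies at -47 to -40, within the same stretch. The start site that RefSeq's promoter gives for *Slc7a11* (50443613) lies 55474 bases inside the gene span printed below, so another transcript start is not covered, and that of *Gclm* lies 70 bases inside. The *Srxn1* window (chr2:152105454-152105510, plus strand) holds an AP-1 site at -45 to -39, and another lies at -102 to -96. The *Prdx1* window (chr4:116685441-116685499, plus strand) holds an ARE core at -133 to -125 that overlaps an AP-1 site at -131 to -125, and a further AP-1 site lies at -237 to -231. None of the 4 motifs was found in these windows of *Keap1*, *Nqo1* and *Sod2*, which says only that these letters are not in that stretch. No member's window held the κB letters.

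*Nfe2l2* and *Keap1* encode the factor and its sensor. *Nfe2l2* (chromosome 2, 75675513 to 75704663) was at 63.6, 76 and 85.7 FPKM in control, at 69.8, 79.8 and 77.5 FPKM in RANKL 4 h, and 93, 82.9 and 81.3 FPKM in RANKL 3 d. It was at 117, 128 and 155 FPKM in LPS 4 h and at 56.6, 71.2 and 91.9 FPKM in LPS 3 d. The LPS 4 h samples lay above all other samples, and the other 4 groups overlapped one another, except that the ranges of RANKL 4 h and RANKL 3 d (69.8 to 79.8 and 81.3 to 93 FPKM) lay side by side without touching. *Keap1* (chromosome 9, 21229730 to 21239332) was at 28.8, 24.9 and 21 FPKM in control, against 22.3, 18.9 and 15.3 FPKM in RANKL 4 h. It was at 15, 18.7 and 18.5 FPKM in RANKL 3 d, 20.1, 23 and 26.1 FPKM in LPS 4 h, and 18.5, 15.9 and 13.9 FPKM in LPS 3 d. All samples of RANKL 3 d and LPS 3 d lay below the lowest control sample, while LPS 4 h overlapped control. The ratio of *Nfe2l2* to *Keap1* FPKM was 3.11 ± 0.934 in control (SD, n = 3 in each group), 4.14 ± 0.964 in RANKL 4 h, 5.02 ± 1.03 in RANKL 3 d, 5.78 ± 0.192 in LPS 4 h and 4.71 ± 1.78 in LPS 3 d, and the ratios of RANKL 3 d and LPS 4 h lay above every control sample.

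**Figure D1:**
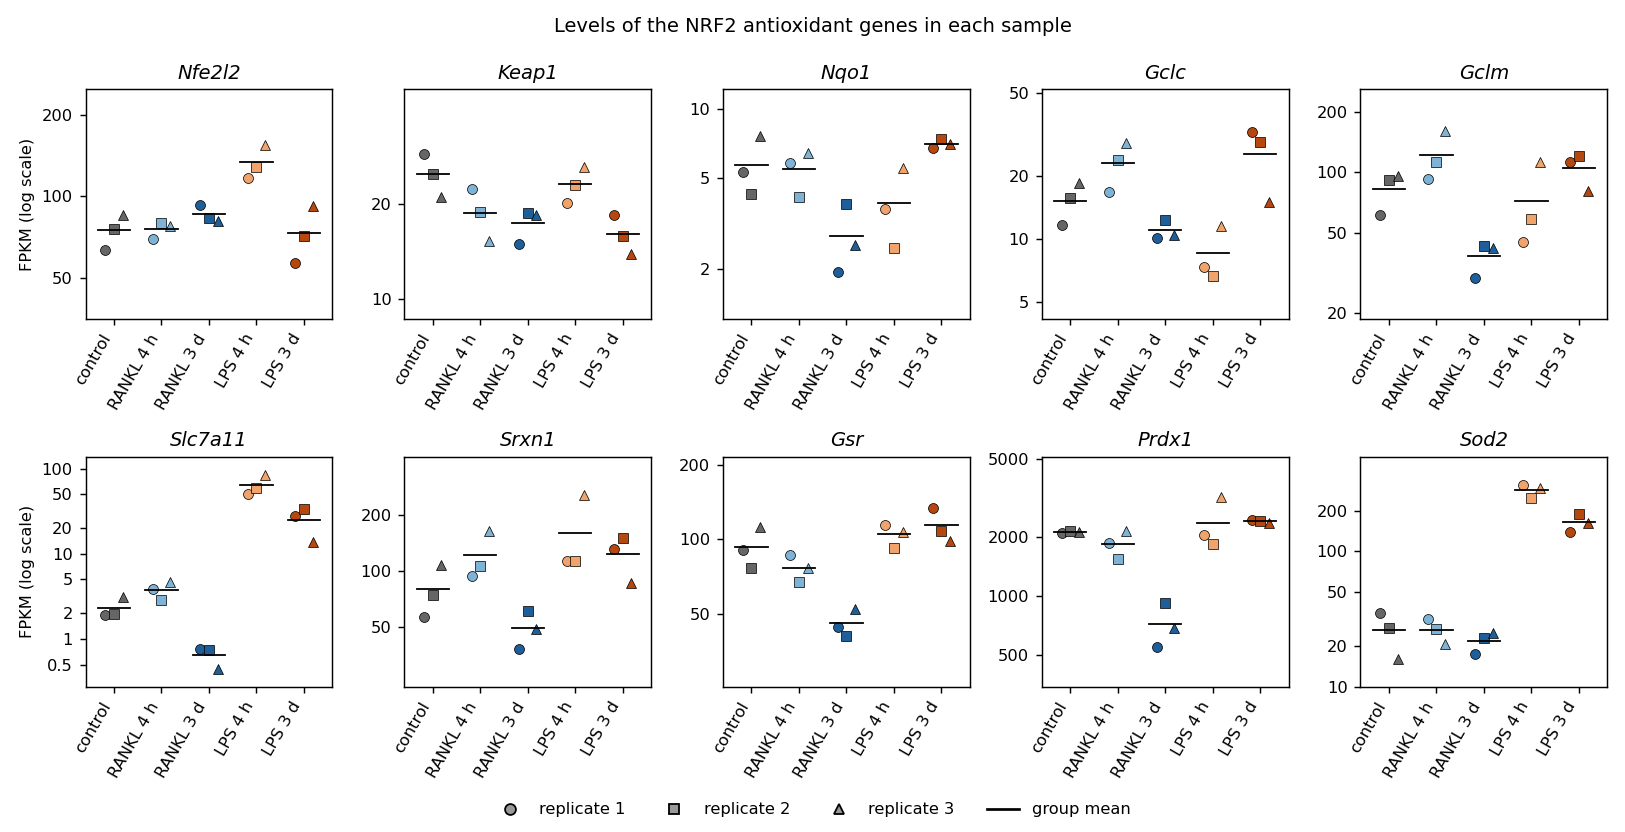
FPKM (log scale) of each of the 10 genes in each of the 15 samples, with 3 samples per group marked by replicate number and the group mean as a bar. *Slc7a11* and *Sod2* are highest in the LPS groups, and *Gclm*, *Gsr* and *Prdx1* are lowest in RANKL 3 d.

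Glutathione is made from glutamate, cysteine and glycine. *Slc7a11* encodes xCT, which imports cystine in exchange for glutamate, and *Gclc* and *Gclm* encode the catalytic and the modifier subunit of glutamate-cysteine ligase, the rate-limiting enzyme. *Slc7a11* (chromosome 3, 50364936 to 50499087) was at 1.93, 1.97 and 3.07 FPKM in control, at 3.82, 2.89 and 4.61 FPKM in RANKL 4 h, and 0.769, 0.734 and 0.44 FPKM in RANKL 3 d. In LPS 4 h it was at 50.2, 58.3 and 84.8 FPKM and in LPS 3 d at 27.8, 33.6 and 13.8 FPKM. It had the widest range of the 10 genes as a ratio of highest to lowest value, its 2 LPS groups overlapped neither each other nor any other group, and its RANKL 3 d samples lay below all others. *Gclm* (chromosome 3, 122245487 to 122267215) was at 61.5, 91.5 and 96.4 FPKM in control, at 92.7, 112 and 161 FPKM in RANKL 4 h, and 30.1, 43 and 42 FPKM in RANKL 3 d. It was at 45.1, 58.9 and 112 FPKM in LPS 4 h and 113, 121 and 80.7 FPKM in LPS 3 d. RANKL 3 d again lay below all other samples, and the other 4 groups overlapped in part, with LPS 4 h replicate 3 far above the other LPS 4 h samples.

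*Gclc* (chromosome 9, 77754535 to 77794489) was at 11.7, 15.7 and 18.6 FPKM in control, against 16.9, 24 and 28.8 FPKM in RANKL 4 h. It was at 10.1, 12.3 and 10.5 FPKM in RANKL 3 d, 7.33, 6.64 and 11.6 FPKM in LPS 4 h, and 32.7, 29.3 and 15.1 FPKM in LPS 3 d. The highest values were those of LPS 3 d replicates 1 and 2, and the third LPS 3 d sample, the one that stood apart, lay within the control range. The 2 ligase subunits did not keep a fixed proportion. The ratio of *Gclm* to *Gclc* FPKM was 5.42 ± 0.347 in control and 5.25 ± 0.503 in RANKL 4 h, 3.49 ± 0.519 in RANKL 3 d, 8.21 ± 1.83 in LPS 4 h and 4.31 ± 0.963 in LPS 3 d. All RANKL 3 d ratios lay below, and all LPS 4 h ratios above, the 3 control ratios.

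The thiol enzymes remove peroxides and return oxidised thiols to the reduced state. *Prdx1* encodes an abundant peroxiredoxin that removes hydrogen peroxide, *Srxn1* encodes sulfiredoxin, which repairs overoxidised peroxiredoxins, and *Gsr* encodes glutathione reductase. *Prdx1* (chromosome 4, 116685599 to 116700000) was the most highly expressed of the 10 in every group, at 2086, 2151 and 2125 FPKM in control, at 1857, 1544 and 2133 FPKM in RANKL 4 h, and 553, 919 and 691 FPKM in RANKL 3 d. It was at 2047, 1850 and 3180 FPKM in LPS 4 h and 2442, 2413 and 2349 FPKM in LPS 3 d. The RANKL 3 d samples lay below every other sample, and the LPS 3 d samples lay just above the control samples without passing the fold threshold used below. *Gsr* (chromosome 8, 33653238 to 33698162) was at 90.6, 76.5 and 112 FPKM in control, against 86.4, 67.5 and 76.3 FPKM in RANKL 4 h. It was at 44.4, 40.7 and 52.2 FPKM in RANKL 3 d, 114, 92.5 and 107 FPKM in LPS 4 h, and 134, 108 and 98 FPKM in LPS 3 d. Here too RANKL 3 d lay below all other samples.

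*Srxn1* (chromosome 2, 152105524 to 152111376) was at 56.7, 74.9 and 108 FPKM in control, at 93.7, 106 and 165 FPKM in RANKL 4 h, and 38.5, 61.5 and 49.1 FPKM in RANKL 3 d. It was at 114, 114 and 255 FPKM in LPS 4 h and 132, 150 and 86.3 FPKM in LPS 3 d. LPS 4 h lay above control, with replicate 3 more than the rest, and the remaining groups overlapped control. The ratio of *Srxn1* to *Prdx1* FPKM was 0.0377 ± 0.0122 in control, 0.0656 ± 0.0137 in RANKL 4 h, 0.0692 ± 0.0021 in RANKL 3 d, 0.0658 ± 0.0127 in LPS 4 h and 0.0511 ± 0.013 in LPS 3 d. In RANKL 3 d and in LPS 4 h every sample's ratio was above the control samples, and in RANKL 3 d both genes had lower mean levels than in control.

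*Nqo1* (chromosome 8, 107388225 to 107403205), an NADPH-dependent quinone reductase and a textbook NRF2 target, was low in these cells, with 59 to 237 fragments per sample. It was at 5.28, 4.23 and 7.6 FPKM in control, at 5.81, 4.14 and 6.43 FPKM in RANKL 4 h, and 1.94, 3.86 and 2.55 FPKM in RANKL 3 d. In LPS 4 h it was at 3.64, 2.46 and 5.53 FPKM and in LPS 3 d at 6.75, 7.41 and 7 FPKM. RANKL 3 d lay below control, and LPS 3 d lay within the upper control range. *Sod2* (chromosome 17, 13007839 to 13018119), the superoxide dismutase of mitochondria, was at 35.2, 26.9 and 16 FPKM in control, at 31.4, 26.6 and 20.8 FPKM in RANKL 4 h, and 17.5, 22.9 and 24.8 FPKM in RANKL 3 d. It was at 310, 248 and 292 FPKM in LPS 4 h and 140, 190 and 162 FPKM in LPS 3 d. Both LPS groups lay above all control and RANKL samples and did not overlap each other.

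For the comparisons, log2(FPKM + 0.1) was tested with limma in 1 fit of all 15 samples, and a gene was counted as higher or lower at a fold change above 1.5 or below 0.66 with an unadjusted p under 0.05, the thresholds of the study. Log2 fold changes are on the log2(FPKM + 0.1) scale, which understates changes of low genes, with the standard error (SE) of the fit, and adjusted p-values are limma's with Benjamini-Hochberg adjustment over the 11743 genes. A gene not past the thresholds is not shown to be the same in both groups. The share of all tested genes whose groups do not overlap was not counted, so statements on overlap only describe the genes named.

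After 4 h of RANKL none of the 10 genes passed the thresholds, where 1.21% of all tested genes were higher and 1.35% lower. By limma, 1 of the 10 had an unadjusted p under 0.05 (*Keap1*, log2 fold change -0.41, SE 0.17, adjusted p = 0.875), and limma voom on recovered fragments called 1, *Slc7a11* (0.71, adjusted p = 1). The fitted changes of *Gclc* (0.59, SE 0.29), *Gclm* (0.54, SE 0.31), *Slc7a11* (0.68, SE 0.33) and *Srxn1* (0.61, SE 0.34) had an adjusted p of 1. In all 4 genes each RANKL 4 h sample was above the control sample of the same number, while the groups overlapped in each of the 10 genes. The same-number ratios were 1.44, 1.52 and 1.55 for *Gclc* and 1.65, 1.42 and 1.52 for *Srxn1*. They were 1.98, 1.47 and 1.5 for *Slc7a11*, 1.51, 1.22 and 1.67 for *Gclm*, and 0.774, 0.757 and 0.729 for *Keap1*. *Gsr* too was below control for every number (0.953, 0.883 and 0.682). How many of all tested genes kept 1 direction for every number was not counted.

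Same-numbered control and RANKL 4 h samples deviated from their group means together over all genes. With the replicate number as a block in a fit of these 2 groups only, a setting chosen after seeing the data, limma called 3 of the 10 genes higher and none lower, where 2.06% of all genes were higher and 2.68% lower. These were *Srxn1* (adjusted p = 0.00748), *Gclc* (adjusted p = 0.00781) and *Slc7a11* (adjusted p = 0.0326). In the same fit *Gclm* (adjusted p = 0.0271) and *Keap1* (adjusted p = 0.0169) stayed short of the fold threshold. With the block in the fit of all 5 groups none of the 10 was called, with adjusted p-values of 0.917 for *Gclc*, 0.892 for *Srxn1* and 0.902 for *Slc7a11*. Without control replicate 3, the fit without a block called *Gclc* (0.73), *Slc7a11* (0.90) and *Srxn1* (0.86). Without RANKL 4 h replicate 1 it called *Gclc* (0.80), and without RANKL 4 h replicate 2 it called *Slc7a11* (0.86).

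**Figure D2:**
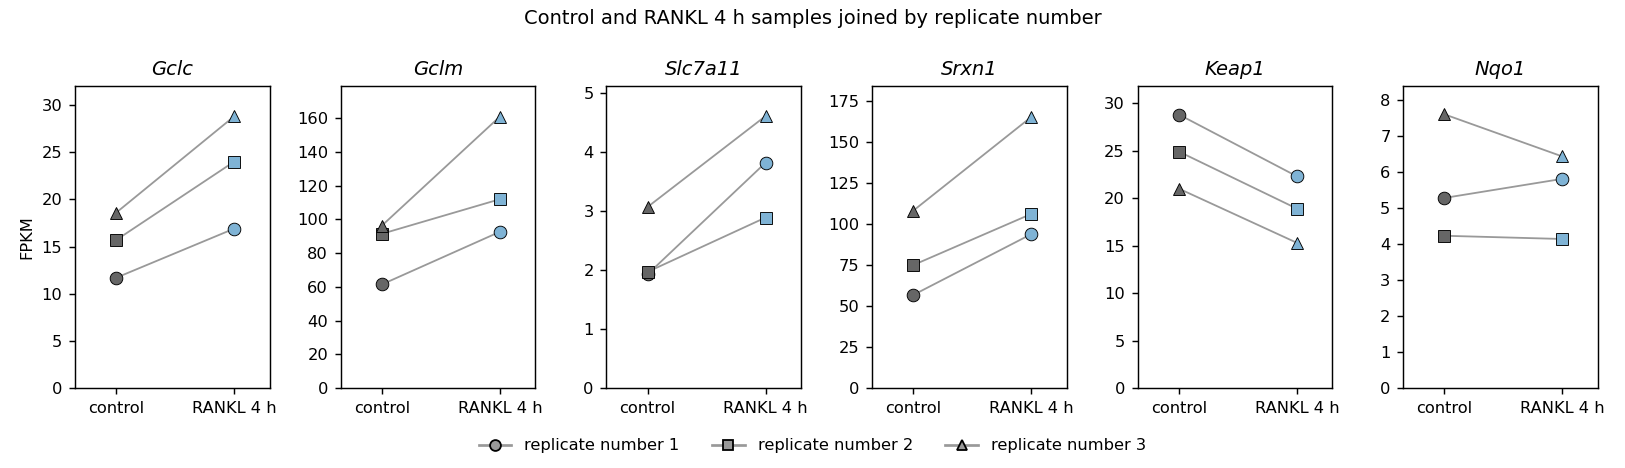
FPKM (axis from 0) of 6 of the genes in the control and RANKL 4 h samples, with lines joining samples of the same replicate number. *Gclc*, *Gclm*, *Slc7a11* and *Srxn1* are higher and *Keap1* lower in RANKL 4 h for each of the 3 numbers, while the lines of *Nqo1* differ in direction.

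After 3 d of RANKL 5 of the 10 genes were lower than in control and none was higher, where 9.04% of all tested genes were lower and 20.2% higher. *Slc7a11* fell by 1.70 on the log2 scale (SE 0.33, adjusted p = 0.00186) and *Prdx1* fell by 1.59 (SE 0.22, adjusted p = 0.000218). *Gclm* fell by 1.10 (SE 0.31, adjusted p = 0.0154), *Nqo1* fell by 1.02 (SE 0.30, adjusted p = 0.0216) and *Gsr* fell by 1.01 (SE 0.16, adjusted p = 0.000559). In these 5 genes, and in *Keap1* (-0.51, adjusted p = 0.0341, short of the fold threshold), all 3 RANKL 3 d samples lay below all 3 control samples. *Srxn1* (-0.66, adjusted p = 0.154), *Gclc* (-0.46, adjusted p = 0.248), *Sod2* (-0.20, adjusted p = 0.556) and *Nfe2l2* (0.20, adjusted p = 0.383) were not past the thresholds. The members' median log2 fold change was -0.837 and that of all tested genes 0.157.

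These 5 calls held without each of the 15 samples in turn, RANKL 3 d replicate 1 included. Without control replicate 3 *Keap1* was also called (-0.63), and without control replicate 1 *Srxn1* (-0.88). With the replicate number as a block in the 2 groups, where 9.67% of all genes were lower, *Srxn1* was called as well (adjusted p = 0.0331). By limma it was also called with these 2 groups fitted without the block (adjusted p = 0.0971). With the block in the fit of all groups it was called too (adjusted p = 0.109). After centring the samples on their median gene, 8 of the 10 were lower, *Keap1*, *Gclc* and *Srxn1* added, where 14.2% of all genes were lower. Beside these falls, 9 of 10 osteoclast markers and 13 of 18 stromal markers were higher in RANKL 3 d and none lower, and 5 of 10 neutrophil and progenitor markers and 6 of 7 B cell markers were lower. Of 8 macrophage markers 1 was higher and 1 lower. The summed osteoclast markers were at 1721 to 5474 FPKM against 155 to 280 FPKM in control, where *Calcr* was at 0, and no stromal, neutrophil or B cell marker was at 0 in either group. The part of these other cells in the falls was not tested, and in such bulk samples fewer cells of a type and less RNA per cell cannot be told apart.

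After 4 h of LPS 4 of the 10 genes were higher and 1 lower than in control, where 8.75% of all tested genes were higher and 41.0% lower. *Slc7a11* was 26.6-fold higher (log2 fold change 4.73, SE 0.33, adjusted p = 9.68e-08) and *Sod2* 11.4-fold higher (3.51, SE 0.25, adjusted p = 1.11e-07). *Srxn1* was 1.93-fold (0.95, SE 0.34, adjusted p = 0.0272) and *Nfe2l2* 1.78-fold higher (0.83, SE 0.17, adjusted p = 0.00078). *Gclc*, whose product joins cysteine to glutamate, fell by 0.86 (SE 0.29, adjusted p = 0.0218). All 5 showed no overlap between LPS 4 h and control. *Keap1* (-0.11, adjusted p = 0.611), *Nqo1* (-0.58, adjusted p = 0.116), *Gclm* (-0.29, adjusted p = 0.438), *Gsr* (0.18, adjusted p = 0.353) and *Prdx1* (0.11, adjusted p = 0.686) were not past the thresholds.

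The median of all tested genes was -0.522 in this comparison, so the scaling mattered. After centring the samples on their median gene, 6 of the 10 genes were higher and none lower, where 17.4% of all genes were higher and 14.3% lower. *Gsr* (0.75, adjusted p = 0.00215) and *Prdx1* (0.68, adjusted p = 0.0535) were then also higher, and *Gclc* (-0.29, adjusted p = 0.425) was no longer lower. The call for *Srxn1* was lost without control replicate 1 (0.73) and without LPS 4 h replicate 3 (0.56), and that for *Gclc* without control replicate 3 (-0.71) and without LPS 4 h replicate 2 (-0.70). Without LPS 4 h replicate 3 *Nqo1* (-0.86) and *Gclm* (-0.66) were called lower, and without control replicate 2 *Nqo1* (-0.77). Without centring, all 10 LPS response markers were higher in LPS 4 h, and no stromal, macrophage or neutrophil and progenitor marker was called. In that fit 3 of 7 B cell markers were lower, where 41.0% of all tested genes were lower as well.

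After 3 d of LPS 3 of the 10 genes were higher and 1 lower than in control, where 14.9% of all tested genes were higher and 16.1% lower. *Slc7a11* was 9.93-fold higher (log2 fold change 3.31, SE 0.33, adjusted p = 1.34e-05) and *Sod2* 6.56-fold higher (2.71, SE 0.25, adjusted p = 7.11e-06). *Gclc* was 1.61-fold higher (0.69, SE 0.29), with an adjusted p of 0.0832, and its samples overlapped control. *Keap1* fell by 0.62 (SE 0.17, adjusted p = 0.0116), without overlap. *Srxn1* (0.63, adjusted p = 0.163), *Gclm* (0.34, adjusted p = 0.409), *Nqo1* (0.34, adjusted p = 0.401), *Gsr* (0.29, adjusted p = 0.177), *Prdx1* (0.18, adjusted p = 0.561) and *Nfe2l2* (-0.05, adjusted p = 0.831) were not past the thresholds.

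Without LPS 3 d replicate 3, the sample that stood apart, *Slc7a11* was at 3.69, *Sod2* at 2.72 and *Gclc* at 1.03 (adjusted p = 0.00721), *Srxn1* was called as well (0.87, adjusted p = 0.073) and *Keap1* was not (-0.52). *Keap1* was also lost without control replicate 1 (-0.51). The call for *Gclc* was lost without control replicate 1 (0.51), control replicate 2 (0.72), LPS 3 d replicate 1 (0.48) or LPS 3 d replicate 2 (0.55), and *Srxn1* was called without control replicate 3 (0.88). All 10 neutrophil and progenitor markers and 6 of 7 B cell markers were lower in LPS 3 d than in control, none of them at 0, and their part in the result was not tested.

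**Figure D3:**
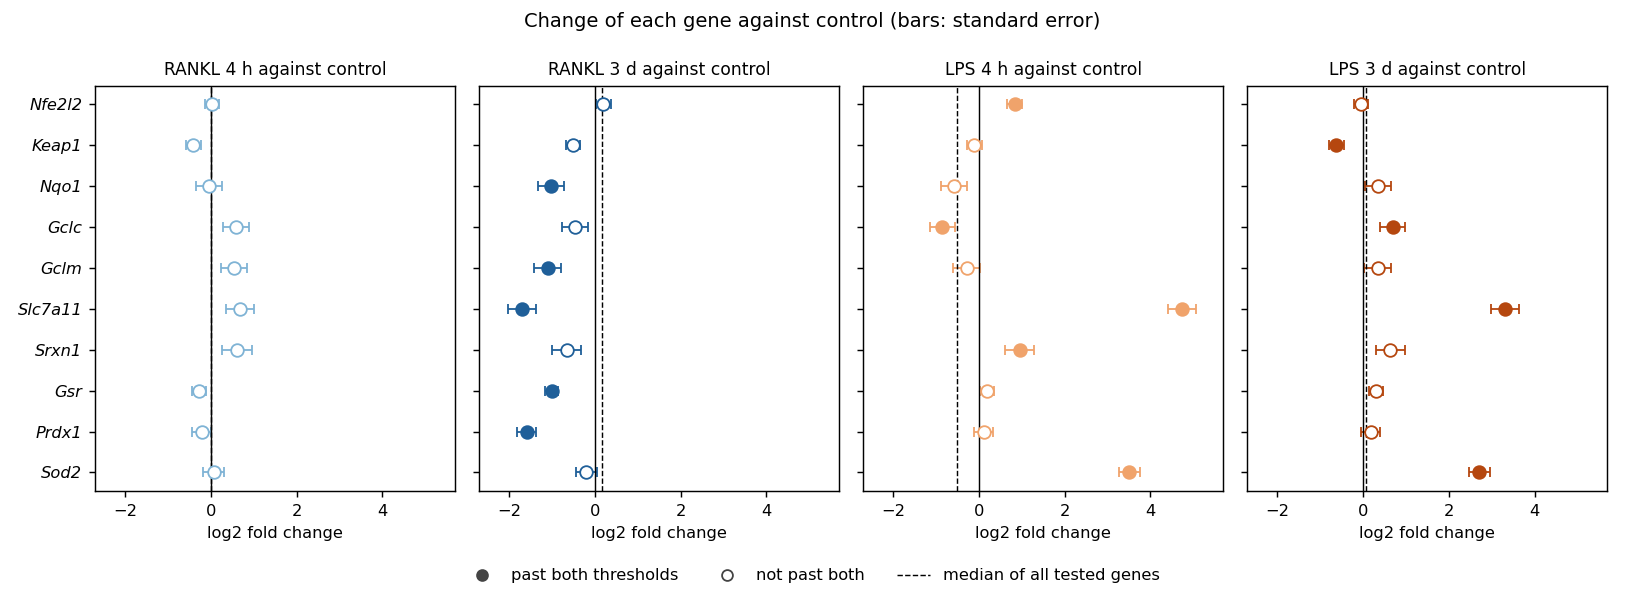
Log2 fold change of each gene against control with its standard error, in 4 panels for the 4 stimulated groups (filled, past both the fold and the p threshold). The points of RANKL 3 d lie to the left of 0 for all but *Nfe2l2*, and those of *Slc7a11* and *Sod2* lie far to the right in both LPS panels; dashed lines mark the median of all tested genes, -0.522 in LPS 4 h.

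RANKL and LPS were then compared directly at each time, where the control samples enter only through the spread shared in the fit. At 4 h 2 genes were higher and 3 lower in RANKL, where 42.5% of all tested genes were higher and 9.31% lower. *Slc7a11* (-4.05, adjusted p = 3.35e-07), *Sod2* (-3.44, adjusted p = 1.2e-07) and *Nfe2l2* (-0.81, adjusted p = 0.000904) were lower in RANKL 4 h than in LPS 4 h. *Gclc* (1.44, adjusted p = 0.000836) and *Gclm* (0.83, adjusted p = 0.031) were higher, so in this fit the ligase genes and the cystine transporter gene differed in opposite directions. The call for *Gclm* was lost without RANKL 4 h replicate 3 (0.61), LPS 4 h replicate 1 (0.55) or LPS 4 h replicate 2 (0.74) and with only these 2 groups in the fit (0.83, adjusted p = 0.0766), and *Nqo1* was called higher without LPS 4 h replicate 3 (0.82). The median of all genes was 0.525 here. After the same centring 1 gene, *Gclc* (0.88), stayed higher and 7 were lower, *Keap1* (-0.87), *Srxn1* (-0.90), *Gsr* (-1.02) and *Prdx1* (-0.89) added, where 14.7% of all genes were higher and 17.6% lower. *Gclm* (0.26, adjusted p = 0.53) was then no longer called, so of the ligase genes only *Gclc* kept a call opposite to that of *Slc7a11*.

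At 3 d 8 of the 10 genes were lower in RANKL than in LPS and none higher, where 13.8% of all tested genes were lower and 25.1% higher. The difference was largest for *Slc7a11* (-5.01, SE 0.33, adjusted p = 2.34e-07) and *Sod2* (-2.92, SE 0.25, adjusted p = 1.12e-06). *Prdx1* (-1.77, adjusted p = 3.03e-05), *Gclm* (-1.45, adjusted p = 0.00178), *Nqo1* (-1.36, adjusted p = 0.00247), *Gsr* (-1.30, adjusted p = 2.69e-05), *Srxn1* (-1.29, adjusted p = 0.00704) and *Gclc* (-1.15, adjusted p = 0.00595) followed. In each of the 8, all RANKL 3 d samples lay below all LPS 3 d samples. The regulators *Nfe2l2* (0.25, adjusted p = 0.234) and *Keap1* (0.11, adjusted p = 0.621) were not past the thresholds. All 8 calls held without each sample in turn, and without LPS 3 d replicate 3 their log2 fold changes ran from -5.39 to -1.37. Stromal markers (11 of 18 higher, 1 lower) and neutrophil and progenitor markers (8 of 10 higher) were also higher in RANKL 3 d, and their part in the result was not tested.

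Within each stimulus the change over time was tested as well. From RANKL 4 h to RANKL 3 d 7 of the 10 genes fell and none rose, where 8.24% of all tested genes were lower and 20.1% higher. *Slc7a11* fell by 2.38 (adjusted p = 0.00018), *Gclm* fell by 1.64 (adjusted p = 0.00167), *Prdx1* fell by 1.37 (adjusted p = 0.000666), *Srxn1* fell by 1.27 (adjusted p = 0.0133) and *Gclc* fell by 1.05 (adjusted p = 0.0171). *Nqo1* fell by 0.98 (adjusted p = 0.0278) and *Gsr* fell by 0.74 (adjusted p = 0.00428), and all 7 calls held without each sample in turn. In the same comparison 11 of 18 stromal markers were higher, and 5 of 10 neutrophil and progenitor and 5 of 7 B cell markers were lower. From LPS 4 h to LPS 3 d 2 genes rose and 3 fell, where 45.0% of all tested genes were higher and 14.3% lower. *Gclc* rose by 1.55 (adjusted p = 0.000378) and *Nqo1* by 0.92 (adjusted p = 0.0158). *Slc7a11* fell by 1.42 (adjusted p = 0.00155), *Nfe2l2* fell by 0.88 (adjusted p = 0.000357) and *Sod2* fell by 0.79 (adjusted p = 0.011). With samples centred on their median gene the call for *Nqo1* was lost (0.27) and *Keap1* (-1.17) and *Srxn1* (-0.97) were lower as well. The call for *Nqo1* was also lost without LPS 4 h replicate 2 (0.64). *Gclm* was called higher without LPS 4 h replicate 3 (1.003) or LPS 3 d replicate 3 (0.81), and *Keap1* lower without LPS 4 h replicate 1 (-0.61) or LPS 3 d replicate 1 (-0.62). Without LPS 3 d replicate 3 the 5 calls held, with *Gclc* at 1.89, *Nqo1* at 0.92, *Slc7a11* at -1.04, *Nfe2l2* at -1.06 and *Sod2* at -0.79. All 10 neutrophil and progenitor markers and 6 of 7 B cell markers were lower in LPS 3 d than in LPS 4 h. The part of these other cells in the changes over time was not tested, and a late effect of the stimulus and time in culture cannot be told apart in them.

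The difference between these 2 time courses was itself tested. The change from 4 h to 3 d was lower in RANKL than in LPS for 5 genes and higher for 1, where 35.9% of all tested genes were lower and 17.1% higher. It differed by -2.59 for *Gclc* (SE 0.42, adjusted p = 0.000191), -2.27 for *Gclm* (SE 0.44, adjusted p = 0.000713), -1.90 for *Nqo1* (SE 0.43, adjusted p = 0.00233), -1.44 for *Prdx1* (SE 0.32, adjusted p = 0.00187) and -0.86 for *Gsr* (SE 0.23, adjusted p = 0.00677). For *Nfe2l2* it was 1.06 (SE 0.24, adjusted p = 0.00201), which came with its fall from LPS 4 h to LPS 3 d. *Slc7a11* (-0.96, adjusted p = 0.0947), *Srxn1* (-0.96, adjusted p = 0.111), *Keap1* (0.41, adjusted p = 0.164) and *Sod2* (0.53, adjusted p = 0.22) were not past the thresholds. *Slc7a11* passed without RANKL 4 h replicate 2 (-1.14), RANKL 3 d replicate 1 (-1.09), LPS 4 h replicate 3 (-1.18) or LPS 3 d replicate 3 (-1.34), and *Srxn1* without RANKL 4 h replicate 1 (-1.12), RANKL 3 d replicate 2 (-1.12), LPS 4 h replicate 3 (-1.34) or LPS 3 d replicate 3 (-1.19). With samples centred on their median gene the call for *Gsr* was lost (-0.43) and *Keap1* (0.84) and *Sod2* (0.96) passed.

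A list of 25 other NRF2 target genes was set beside the 10, of which 20 were tested. None of them was called in RANKL 4 h. In RANKL 3 d 10 were lower and 2 higher than in control, with a median of -0.606 against 0.157 for all genes. Of all tested genes 9.04% were lower and 20.2% higher. *Hmox1*, the heme-degrading enzyme, was at 268, 293 and 272 FPKM in RANKL 3 d against 938, 1245 and 1267 FPKM in control, and fell by 2.04 (adjusted p = 0.000154). *Gstm1*, a glutathione S-transferase, fell by 1.35 (adjusted p = 0.000162). The 2 that rose were *Ephx1*, an epoxide hydrolase (1.42, adjusted p = 0.000407), and *Abcc1*, an export pump for glutathione conjugates (0.90, adjusted p = 0.0316).

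In LPS 4 h 6 of the 20 were lower and 1 higher, with a median of -0.552 next to -0.522 for all genes. Of all tested genes 41.0% were lower and 8.75% higher. *Osgin1* (-1.54, adjusted p = 0.000354) and *Cbr3*, a carbonyl reductase (-1.51, adjusted p = 0.000191), fell the most, and *Abcc1* (0.87, adjusted p = 0.0197) rose. *Hmox1* was at 459, 498 and 1009 FPKM there and fell by 0.89 (adjusted p = 0.0113). After centring the samples on their median gene 2 of the 20 were lower and 1 higher, where 14.3% of all genes were lower and 17.4% higher. *Osgin1* (-0.98, adjusted p = 0.00886) and *Cbr3* (-0.95, adjusted p = 0.00783) then stayed lower, while *Hmox1* (-0.33, adjusted p = 0.375) did not pass. In LPS 3 d 6 of the 20 were higher and 1 lower, with a median of 0.216 against 0.0752 for all genes, of which 14.9% were higher and 16.1% lower. *Abcc1* (1.19, adjusted p = 0.00648) and *Me1*, the cytosolic malic enzyme that makes NADPH (1.13, adjusted p = 0.00147), rose the most, *Hmox1* was at 2199, 2265 and 1773 FPKM (0.86, adjusted p = 0.0243), and *Tkt*, transketolase, fell by 0.78 (adjusted p = 0.000292). Between RANKL 3 d and LPS 3 d 10 of the 20 were lower in RANKL and 2 higher, with *Hmox1* lower by the most (-2.90, adjusted p = 2.27e-06). Of all tested genes 13.8% were lower and 25.1% higher there. Without LPS 3 d replicate 3 the count in LPS 3 d against control was 5 higher and 2 lower, with *Hmox1* at 0.97, *Abcc1* at 1.11, *Me1* at 1.13 and *Tkt* at -0.86, and that between RANKL 3 d and LPS 3 d was again 10 lower and 2 higher.

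**Figure D4:**
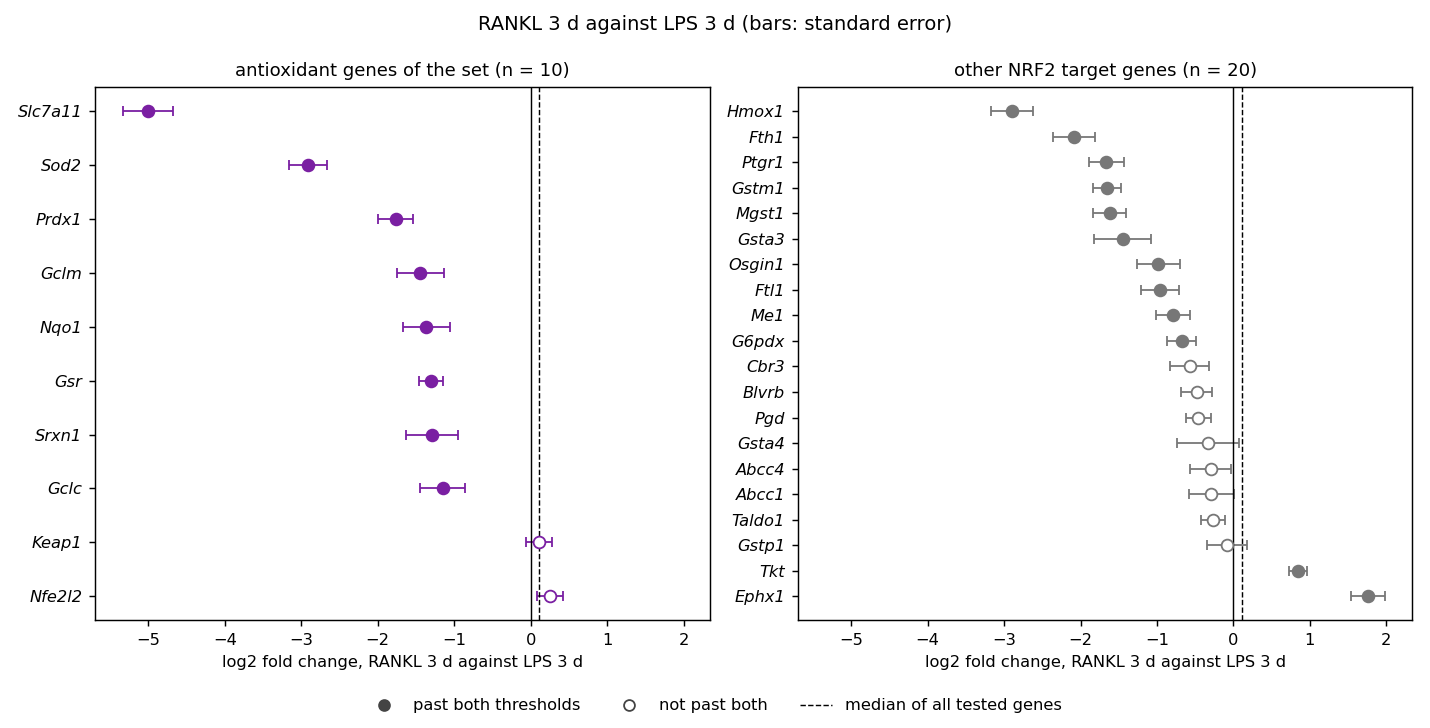
Log2 fold change of RANKL 3 d against LPS 3 d with its standard error, for the 10 antioxidant genes (left) and 20 other NRF2 target genes (right), sorted by value (filled, past both thresholds). On the left 8 of 10 genes are lower in RANKL 3 d, and on the right 10 of 20 are lower and *Tkt* and *Ephx1* are higher, with the median of all genes (dashed) at 0.107.

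Among 12 tested regulators and partners of NRF2, *Sqstm1*, whose product p62 draws KEAP1 into autophagy and is itself an NRF2 target, and *Maff*, a small MAF partner, were called higher in RANKL 4 h. Of all tested genes 1.21% were higher there. *Sqstm1* was at 357, 473 and 551 FPKM in control, against 702, 767 and 989 FPKM in RANKL 4 h, without overlap (0.84, adjusted p = 0.331). It was at 1507, 1567 and 2403 FPKM in LPS 4 h (1.98, adjusted p = 9.34e-06) and at 274, 279 and 289 FPKM in RANKL 3 d, where it fell by 0.69 (adjusted p = 0.0355). *Maff* was at 0.864 to 2.01 FPKM in control, 2.32 to 2.47 FPKM in RANKL 4 h (0.91, adjusted p = 0.722) and 14.3 to 35.7 FPKM in LPS 4 h (4.11, adjusted p = 3.88e-07), and it rose in RANKL 3 d (1.22, adjusted p = 0.014) and LPS 3 d (1.91, adjusted p = 0.000688). *Mafk*, another small MAF gene, rose in LPS 4 h (1.20, adjusted p = 0.000204) and fell by 1.08 in RANKL 3 d (adjusted p = 0.00159), and *Mafg*, the third, fell by 0.60 in LPS 4 h (adjusted p = 0.00117), where the median of all genes was -0.522. After centring *Mafg* was at -0.04 there and *Mafk* at 1.76.

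*Bach1*, a repressor that competes with NRF2 at the same elements, was at 15.5 to 20.8 FPKM in control, 19.7 to 22 FPKM in RANKL 3 d and 11.9 to 12.6 FPKM in LPS 3 d. It was higher in RANKL 3 d than in LPS 3 d (0.75, adjusted p = 0.00116). *Cul3*, the scaffold of the KEAP1 ligase, ranged from 20.3 to 27.3 FPKM over all samples and was not called in any comparison with control, except after centring in LPS 4 h (0.63, adjusted p = 0.000154). In all, 1 of the 12 was higher and 3 lower in RANKL 3 d, 3 higher and 2 lower in LPS 4 h, and 2 higher and 2 lower in LPS 3 d, with medians of 0.018, -0.199 and 0.0582. Of all genes 20.2% were higher and 9.04% lower in RANKL 3 d, 8.75% and 41.0% in LPS 4 h, and 14.9% and 16.1% in LPS 3 d. After centring 5 regulators were higher and none lower in LPS 4 h, where 17.4% of all genes were higher and 14.3% lower. The third gene lower in RANKL 3 d and among the 2 lower in LPS 3 d was *Nfe2* (-2.11, adjusted p = 0.0152, and -2.86, adjusted p = 0.00214), a relative of NRF2 that is found in blood precursors, whose fall came beside that of the neutrophil and progenitor markers. *Nfe2l1*, another relative, rose in LPS 3 d (0.60, adjusted p = 0.00209). Without LPS 3 d replicate 3 *Nfe2l1* was short of the fold threshold (0.56), *Nfe2* was at -3.34 and *Maff* at 2.06.

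Of 30 tested enzymes of glutathione and peroxide metabolism outside the set, none was called in RANKL 4 h, 5 were higher and 5 lower in RANKL 3 d, 2 higher and 10 lower in LPS 4 h, and 6 higher and 7 lower in LPS 3 d. Their medians were 0.111, -0.482 and 0.0624, against 0.157, -0.522 and 0.0752 for all genes. In RANKL 3 d 20.2% of all genes were higher and 9.04% lower, and in LPS 3 d 14.9% and 16.1%. The 10 lower in LPS 4 h compare with 41.0% of all genes, and the 2 higher with 8.75%. After centring 4 were higher and 3 lower in LPS 4 h, where 17.4% of all genes were higher and 14.3% lower. In RANKL 3 d *Slc3a2*, the heavy chain that carries xCT to the cell surface, fell by 1.37 (adjusted p = 0.00268) and *Msrb1*, a methionine sulfoxide reductase, fell by 1.03 (adjusted p = 0.00427), whereas *Sesn3* (1.41, adjusted p = 0.0129) and the peroxiredoxin gene *Prdx4* (0.85, adjusted p = 0.0253) rose. The sestrin genes parted in LPS 4 h, where *Sesn1* fell by 4.67 (adjusted p = 2.41e-07) and *Sesn2* fell by 2.49 (adjusted p = 6.42e-07), while *Sesn3* (0.9986, adjusted p = 0.0346) and *Prdx5* (0.88, adjusted p = 0.0416) rose. In LPS 3 d *Glrx*, glutaredoxin (2.07, adjusted p = 0.000406), and *Prdx6* (1.32, adjusted p = 0.000584) rose, *Msra* fell by 1.54 (adjusted p = 0.0014) and *Ggt5* fell by 1.40 (adjusted p = 0.0168). Without LPS 3 d replicate 3 the count was 5 higher and 7 lower, with *Glrx* at 1.84, *Prdx6* at 1.52, *Msra* at -1.49 and *Ggt5* at -1.91.

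*Slc7a11* is also a known target of ATF4, so a list of 11 genes, *Atf4* itself and ATF4 target genes, was counted. None was called in RANKL 4 h. In RANKL 3 d 1 was higher and 3 lower, in LPS 4 h 1 higher and 2 lower, and in LPS 3 d 2 higher and 6 lower. The medians were -0.15, -0.319 and -0.921, against 0.157, -0.522 and 0.0752 for all genes. Of all genes 20.2% were higher and 9.04% lower in RANKL 3 d. These shares were 8.75% and 41.0% in LPS 4 h, and 14.9% and 16.1% in LPS 3 d. After centring 3 were higher and 1 lower in LPS 4 h, where 17.4% of all genes were higher and 14.3% lower. *Trib3*, a pseudokinase, fell by 2.10 in LPS 4 h (adjusted p = 0.00113) and fell by 1.40 in RANKL 3 d (adjusted p = 0.0288). *Ddit3*, the stress factor CHOP, fell by 0.92 in LPS 4 h (adjusted p = 0.0143) and fell by 1.97 in RANKL 3 d (adjusted p = 0.000294). In LPS 4 h *Trib3* stayed lower after centring (-1.54, adjusted p = 0.0124), while *Ddit3* was no longer called (-0.35, adjusted p = 0.339). *Phgdh*, which starts serine synthesis, rose in LPS 4 h (0.98, adjusted p = 0.0183) and fell by 2.88 in LPS 3 d (adjusted p = 2.93e-05), where *Psat1* of the same pathway fell by 1.75 (adjusted p = 0.000177). *Ddit3* rose in LPS 3 d (0.93, adjusted p = 0.0233), where it was at 60.2, 86 and 28.6 FPKM, the last within the control range of 26.5 to 28.6 FPKM. Without LPS 3 d replicate 3 the count there was 3 higher and 6 lower, with *Ddit3* at 1.37, *Trib3* at 1.15, *Phgdh* at -3.25 and *Psat1* at -1.74. *Ddit4* rose in RANKL 3 d (1.46, adjusted p = 0.00976).

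Across the 15 samples the 10 genes differed in which other genes they resembled, as a description over samples that fall into 5 groups and with Pearson's r of log2(FPKM + 0.1) over 9485 genes compared. *Gclm* was most like *Pgd*, an enzyme of the pentose phosphate pathway and a known NRF2 target (r = 0.959), followed by *Atf5* and *Gstm1* (r = 0.887). *Nqo1* was most like *Afp* (r = 0.915), followed by *Creg1* (r = 0.886) and *Hmox1* (r = 0.873). *Prdx1* was most like *Fth1*, the ferritin heavy chain (r = 0.930), followed by *Ccl2* (r = 0.916) and *Milr1* (r = 0.909). *Slc7a11* was most like *Cebpb* (r = 0.976), followed by the cytokine genes *Il1a* and *Il12a*, and *Sod2* most like *N4bp1* (r = 0.971), followed by *Socs3* and *Il1b*. *Nfe2l2* was most like *Prkcd* (r = 0.934), *Keap1* like *Trim14* (r = 0.907), *Gclc* like *Tatdn2* (r = 0.945), *Srxn1* like *Slc23a2* (r = 0.878) and *Gsr* like *Ppp2cb* (r = 0.959). Within the set the highest values were those of *Slc7a11* and *Sod2* (r = 0.922), *Gsr* and *Prdx1* (r = 0.880) and *Srxn1* and *Prdx1* (r = 0.801). The ligase genes *Gclm* and *Gclc* had an r of 0.779, and *Slc7a11* and *Gclc* one of -0.01. The lowest value was that of *Nfe2l2* and *Gclc* (r = -0.661).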

How the data were processed

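The 15 RNA-seq samples of mouse BMDMs fell into 5 groups of 3 by their labels. Libraries were made from total RNA with a SMARTER mRNA kit, and whether counting used strand is not stated. The authors deposited FPKM values, made with StringTie and Ballgown, and the submitters' processing notes name GRCm38.p4 and mm10. The aligner is not given in the sources used here. The table analysed holds 20089 complete entries and 1 incomplete one, for *Ttk*. Genes from there on in alphabetical order, such as *Txnrd1* and *Txn1* of the lists, were not analysed here. Gene positions and promoters are RefSeq's on GRCm38.p6.

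Genes averaging 0.1 FPKM or more over the samples, 11743 in all, were tested on log2(FPKM + 0.1) with limma 3.58.1 in R 4.3.3 with the trend option, in place of the authors' edgeR, since FPKM are not counts. The FPKM of each gene were whole multiples of a step, so fragments were recovered for 14485 genes above 0 in at least 3 samples (100% of values within 0.01 of a whole number) and used in an alternative fit with limma voom. Fragments summed over these genes had a median of 19351141 per sample. Counting error is largest for *Nqo1* (59 to 237 fragments) and for *Slc7a11*, which had 85 to 144 fragments in RANKL 3 d. Amplified fragments are not independent molecules. Replicates differed by 6.88 to 46.3 times sampling noise and were counted as separate samples. The fit and the recovery were tested on simulated data, where fragments were recovered exactly for 2905 of 2906 genes. Samples simulated for the fit varied independently, so that test does not cover deviations shared by same-numbered samples or a sample that stands apart.

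All members are named. Of the other lists, the genes named are the 2 largest rises and falls among those past the thresholds averaging 1 FPKM or more and with all 3 values on 1 side of control, and *Hmox1*, *Cul3*, *Bach1*, *Sqstm1*, *Mafg*, *Maff* and *Mafk*. For each member the 3 genes with the highest correlation were sought. The members and lists were chosen with earlier results of these data known. Pairing by replicate number was checked by correlating same-numbered samples' deviations from their group means. It was 0.71 to 0.84 between control and RANKL 4 h, 0.14 to 0.32 between control and RANKL 3 d, 0.44 to 0.62 between control and LPS 4 h, 0.55 to 0.69 between RANKL 4 h and LPS 4 h and 0.16 to 0.25 between RANKL 4 h and RANKL 3 d. With LPS 3 d it fell to -0.23 to 0.18. The pairing is thus read from the data, not from the labels. Alternatives covered the pseudocount, the filter, the scaling, the groups fitted, the block, the trend, the adjustment of p, voom and each left-out sample. Python 3.11.15 with numpy 2.4.6, pandas 2.3.3, scipy 1.17.1 and matplotlib 3.10.9 was used for the rest.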

Additional observations from a re-analysis of the deposited data

Results flagged for a closer look

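In 6 of the 10 genes the change from 4 h to 3 d differed between RANKL and LPS by limma's test of that difference (adjusted p under 0.05). On the log2(FPKM + 0.1) scale the RANKL change minus the LPS change was -2.59 for *Gclc*, -2.27 for *Gclm*, -1.90 for *Nqo1*, -1.44 for *Prdx1*, -0.86 for *Gsr* and 1.06 for *Nfe2l2*. The same 6 passed the fold threshold with an unadjusted p under 0.05, a different rule, by which 35.9% of all tested genes were lower and 17.1% higher. By that rule 6228 of the 11743 tested genes differed, so such a difference was common among all genes. The groups hold 3 samples each, which is too few for a test of single outlying samples.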

How the results depend on the processing

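For the 10 genes in 9 comparisons, 2430 values under alternatives were computed. Of these 2348 kept their direction where called and their side of the thresholds, 24 lost a call, 58 gained a call and 0 called values changed sign. The number of genes called in RANKL 4 h against control was 0 and depended on the setting. It was 1 with samples centred on their median gene, 2 with only the groups compared in the fit, 1 with limma voom, 3 with the replicate block in these 2 groups and 0 with the replicate block in all 5, and 0 to 3 without each sample in turn. The values outside 0 came, beside the samples named above, without RANKL 3 d replicate 3 (1), LPS 4 h replicate 3 (1), LPS 3 d replicate 2 (1) and LPS 3 d replicate 3 (2), which are not in that comparison and enter through the shared spread. With samples centred on their median gene the count was 8 in place of 5 for RANKL 3 d and 8 in place of 5 for RANKL 4 h against LPS 4 h. For LPS 3 d it was 4, and 2 to 5 without each sample in turn, lowest without control replicate 1. Leaving out LPS 4 h replicate 3 also added *Srxn1* in RANKL 3 d and LPS 3 d. Where numbers did not pair the samples, the replicate block in all groups added *Gclm* for LPS 3 d against LPS 4 h (0.63) and *Srxn1* for the difference of time courses (-0.96). The call for *Gclc* in LPS 3 d (0.69) was lost with only these 2 groups in the fit, with and without the block, and kept with the block in all groups. Beside the changes given above, the replicate block changed no other call where the numbers paired the samples. The call for *Keap1* in LPS 3 d was lost at a pseudocount of 1 and with FPKM rescaled to equal sums. Depth limits *Nqo1* most, with at least 59 fragments per sample, then *Slc7a11* in RANKL 3 d, with at least 85.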
